A study of Homo sapiens with 6 samples.

Results

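ATP-binding cassette (ABC) transporter genes were followed in 2 forms of 786-O, an established line of human clear-cell kidney cancer: the control cells and 7R, a form that the labels call sunitinib-resistant. Sunitinib is an inhibitor of receptor tyrosine kinases that is used against this cancer. Members were the rows of the count table whose symbol is ABC, then a letter from A to G, then digits only, which takes no pseudogene or antisense name, and 44 of 54261 gene rows are described here. Of these, 26 had enough counts to be tested and 18 did not. Each line was represented by 3 libraries of total RNA, called control (786-O, phenotype control) and resistant (7R, phenotype sunitinib-resistant) below. Both were grown in the same culture medium. Nothing in the labels says whether 7R is 1 clone, how it was selected or whether sunitinib was present at harvest. Separate cultures behind the libraries of a line are not stated either, so p-values here speak only of library-to-library spread, part of which may be technical.

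ABC proteins bind ATP through a pair of nucleotide-binding domains and, in most members, use it to move a substrate across a membrane. Subfamily A carries lipids, B holds the drug pump ABCB1 together with mitochondrial, lysosomal and bile transporters, C holds the multidrug resistance proteins and the sulfonylurea receptors of potassium channels, D serves peroxisomes and lysosomal cobalamin, and G holds the drug pump ABCG2 and sterol transporters. Members of E and F have no membrane domain and act on ribosomes. ABC pumps are studied in drug resistance because several expel anticancer drugs, and sunitinib itself is carried by ABCB1 and ABCG2. Healthy kidney proximal tubule uses ABCB1, ABCC2, ABCC4 and ABCG2 to secrete drugs into urine.

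The family shares a signature motif in the nucleotide-binding domain, and members spell it with different bases. The coding stretches below, read from GENCODE release 29 transcripts on GRCh38, are shown because the fold changes of the family followed base composition, as described further on. Capitals mark the 15 bases of the motif, with 15 coding bases on each side. ABCA5 (chr17:69289207-69289251, minus strand), ABCB1 (chr7:87549453-87549497, minus), ABCC4 (chr13:95178005-95178049, minus) and ABCC5 (chr3:183963538-183963582, minus) were higher in the resistant libraries, and ABCB8 (chr7:151043973-151044017, plus), ABCB9 (chr12:122932276-122932320, minus) and ABCF3 (chr3:184193167-184193211, plus) were lower.
ABCA5: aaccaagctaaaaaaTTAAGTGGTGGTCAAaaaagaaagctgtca
ABCB1: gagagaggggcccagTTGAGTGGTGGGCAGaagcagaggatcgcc
ABCC4: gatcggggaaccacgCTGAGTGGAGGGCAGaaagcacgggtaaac
ABCC5: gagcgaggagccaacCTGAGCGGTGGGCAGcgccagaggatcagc
ABCB8: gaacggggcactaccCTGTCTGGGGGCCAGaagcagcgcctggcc
ABCB9: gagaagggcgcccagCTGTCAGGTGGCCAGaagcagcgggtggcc
ABCF3: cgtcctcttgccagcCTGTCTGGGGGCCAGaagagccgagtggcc
ABCA5 used 6 G or C bases in the 15 of the motif, ABCB1 used 9, ABCC4 10, ABCC5 11, ABCB8 11, ABCB9 10 and ABCF3 11. Counts of 10 and 11 thus occurred among both the higher and the lower members. Higher and lower are here calls before the adjustment for GC content described below. After it, ABCA5, ABCB1, ABCC4 and ABCC5 stayed higher, ABCB9 turned higher, and ABCB8 and ABCF3 did not pass. ABCB1 held the motif 2 times, and the first is shown. Of 43 members with a coding transcript in that annotation, 25 held the exact amino acid motif LSGGQ, and 17 of these had the stretch within 1 exon. Over whole coding sequences of tested members, G or C stood at the third codon position in 30.3% (ABCA5) to 86.1% (ABCA2) of codons.

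The libraries held between 37919629 and 52221491 counts, and a gene at 0 may still have had 3 counts, which corresponds to 0.0663 to 0.0707 CPM (counts per 1e+06, scaled by TMM factors) when counting error alone is considered. Between 30 and 34 members had counts in a library. Over all 16642 genes tested, 76.2% passed the threshold (edgeR's quasi-likelihood test, Benjamini-Hochberg adjusted p of 0.05), 6540 higher (39.3%) and 6143 lower (36.9%), so that calls were common in this comparison. Scaling by total counts alone gave 7851 higher and 4720 lower. The median log2 fold change of all tested genes was 0.05, and 0.39 with that scaling. Fold changes are resistant over control, with standard errors approximated from the test statistic. Values named as GC-adjusted come from the same test after a trend on GC content and length of the transcripts had been removed from each library. That adjustment would also remove a biological difference that follows GC content. In bulk RNA, fewer cells of a kind and less RNA per cell cannot be told apart.

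Of the 26 tested members, 10 rose, 12 fell and 4 did not pass, so 84.6% were called beside 76.2% of all tested genes (39.3% higher and 36.9% lower). Their median log2 fold change was -0.24, against 0.05 for all genes. The median of the members turned positive when libraries were scaled by total counts (0.10), while the calls were then 10 higher and 11 lower. Among the called members, 8 higher and 7 lower ones changed at least 2-fold, as did 49.4% of all genes. The control and resistant libraries did not overlap for 22 members, against 80.3% of all tested genes. After GC adjustment 13 members were higher and 10 lower, where 66.9% of all genes were called (34.3% higher and 32.6% lower), and the median was 0.27. Of the 10 that rose, 9 stayed higher after adjustment and ABCE1 turned lower. Of the 12 that fell, 6 stayed lower, 3 turned higher (ABCA7, ABCB6 and ABCB9) and 3 no longer passed (ABCB8, ABCD4 and ABCF3). With GC content and length of the longest transcript instead, ABCD4 stayed lower (-0.28, adjusted p = 0.0292) and ABCF3 was called higher (0.24, adjusted p = 0.0156), while ABCB8 did not pass (-0.19). After adjustment 5 members were called higher and 6 lower with a change of at least 2-fold, among them ABCA13 and ABCG2, which had not passed before, and 23.4% of all genes reached that size.

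**Figure D1:**
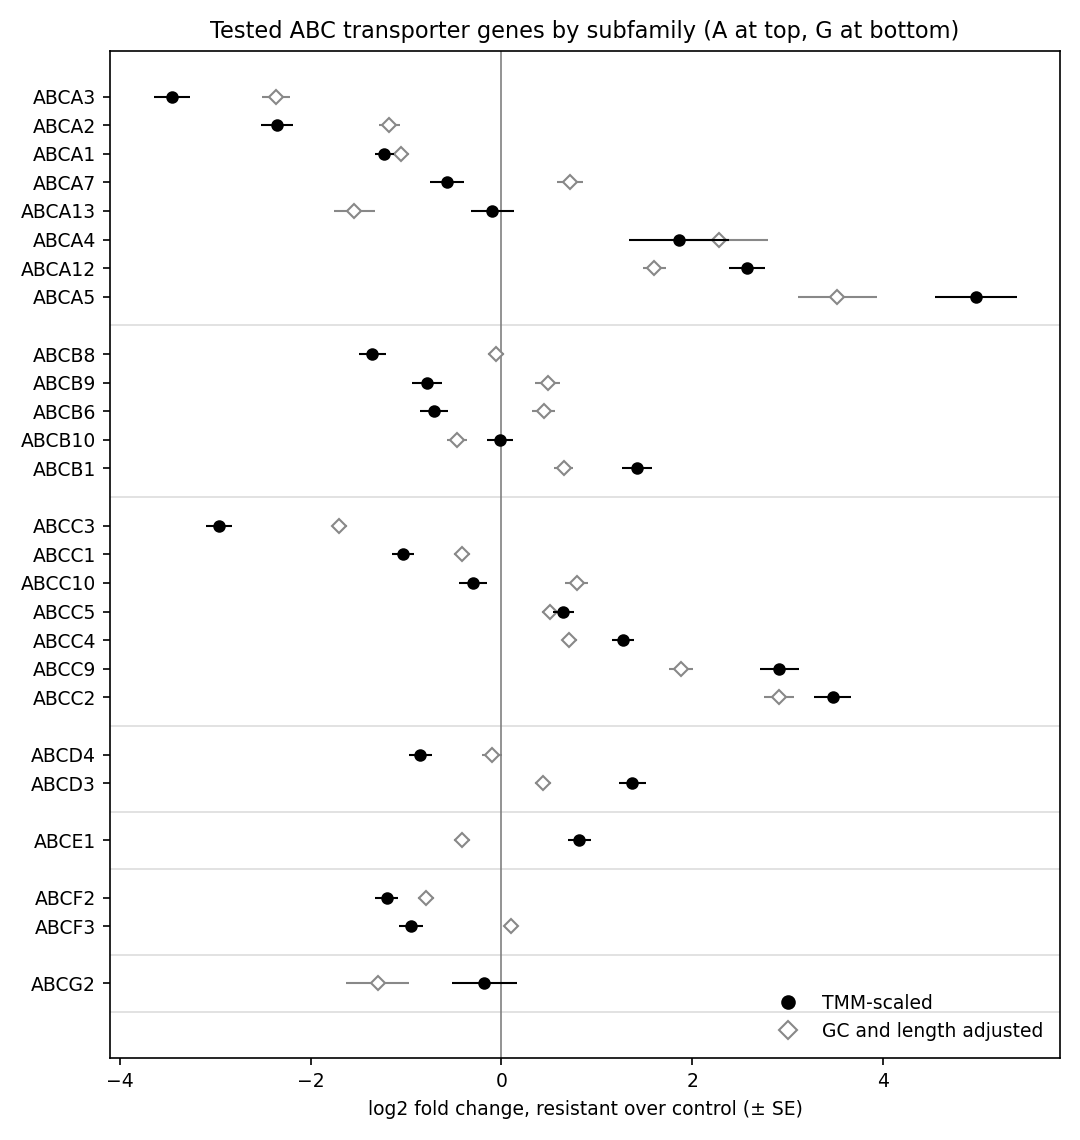
Log2 fold change (x axis, resistant over control, bars ± SE) of the 26 tested ABC transporter genes, listed by subfamily from A to G on the y axis, with filled circles for the TMM-scaled test and open diamonds for the GC-adjusted one. ABCA5 and ABCC2 lie farthest to the right and ABCA3 and ABCC3 farthest to the left, and ABCE1, ABCA7, ABCB6, ABCB9, ABCC10 and ABCF3 lie on opposite sides of 0 in the 2 tests.

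Among the drug pumps, ABCB1 rose and ABCG2 did not pass the test. ABCB1 (P-glycoprotein), a plasma membrane pump of many hydrophobic drugs, measured 15.4, 11.96 and 11.2 CPM in the control libraries and 28.4, 39.0 and 35.9 CPM in the resistant ones. All 3 resistant libraries lay above all 3 control libraries. The change was 2.68-fold (log2 fold change 1.42 ± 0.16, adjusted p = 5.19e-06), and 0.65 on the log2 scale after GC adjustment (adjusted p = 1.53e-04). ABCG2 (breast cancer resistance protein), the other pump known to carry sunitinib, was low at 1.48, 1.98 and 0.884 CPM in control and 1.02, 1.26 and 1.55 CPM in resistant libraries. The groups overlapped, and the difference of -0.18 (95% interval -0.85 to 0.49, adjusted p = 0.649) leaves room for a change in either direction. Its sign was positive without control replicate 2 (0.07) and with scaling by total counts (0.16). GC adjustment gave -1.30 (adjusted p = 0.00460), past the threshold. These levels rest on 40 to 86 counts per library.

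The multidrug resistance proteins of subfamily C, which export conjugated and anionic compounds, moved in both directions, and of the 7 tested members of that subfamily 4 rose, 2 fell and 1 did not pass (5, 2 and 0 after GC adjustment). ABCC2, an apical exporter of glutathione and glucuronide conjugates, measured 4.0, 2.33 and 2.45 CPM in control and 33.0, 31.2 and 33.6 CPM in resistant libraries. It was 11.1-fold higher, with a log2 fold change of 3.48 ± 0.19 (adjusted p = 6.19e-08, GC-adjusted 2.91). ABCC3, which exports similar conjugates through the basolateral membrane, went the other way, from 76.3, 91.3 and 100.1 CPM to 12.5, 10.4 and 11.5 CPM. It was 7.78-fold lower, with a log2 fold change of -2.96 ± 0.14 (adjusted p = 2.19e-08, GC-adjusted -1.70). Per kilobase of transcript, the level of ABCC3 was 15.6 ± 2.11 CPM in control against 0.504 ± 0.160 for ABCC2, and 2.01 ± 0.188 in resistant libraries against 5.61 ± 0.219 (SD, n = 3), so their order differed between the lines.

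ABCC4, which exports cyclic nucleotides, prostaglandins and nucleoside drugs, measured 71.4, 66.8 and 61.8 CPM in control and 139.7, 167.2 and 176.2 CPM in resistant libraries. Its 2.42-fold rise (log2 fold change 1.27 ± 0.12, adjusted p = 1.29e-06) left no overlap and became 0.71 after GC adjustment. ABCC5, another exporter of cyclic nucleotides and nucleotide analogues, rose by 0.65 ± 0.11 on the log2 scale (GC-adjusted 0.51). ABCC1, the widely expressed exporter of glutathione conjugates and leukotriene C4, fell from 51.4, 44.2 and 52.2 CPM to 25.7, 22.5 and 23.9 CPM. That was a 2.05-fold decrease (log2 fold change -1.04 ± 0.12, adjusted p = 5.54e-06), and -0.42 after GC adjustment. ABCC10, a further multidrug resistance protein, did not pass at -0.30 ± 0.14 (adjusted p = 0.0761). It was called lower without control replicate 2 (-0.44) or without resistant replicate 1 (-0.38), and higher after GC adjustment (0.79).

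ABCC9 (sulfonylurea receptor 2) is no pump but the regulatory subunit of ATP-sensitive potassium channels. It measured 14.2, 14.6 and 10.8 CPM in control and 67.7, 118.4 and 113.3 CPM in resistant libraries. The lowest resistant value, in replicate 1, was still well above the highest control value. ABCC9 was 7.55-fold higher (log2 fold change 2.92 ± 0.21, adjusted p = 2.51e-07, GC-adjusted 1.88). The pore subunits it joins were scarce: KCNJ8 had 3, 12 and 1 counts in control libraries and 0 in each resistant one, and KCNJ11 had 0 counts in all 6. The 12 members of subfamily C summed to 270 ± 6.50 CPM in control and 393 ± 40.0 CPM in resistant libraries (SD, n = 3), a level summed without GC adjustment.

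**Figure D2:**
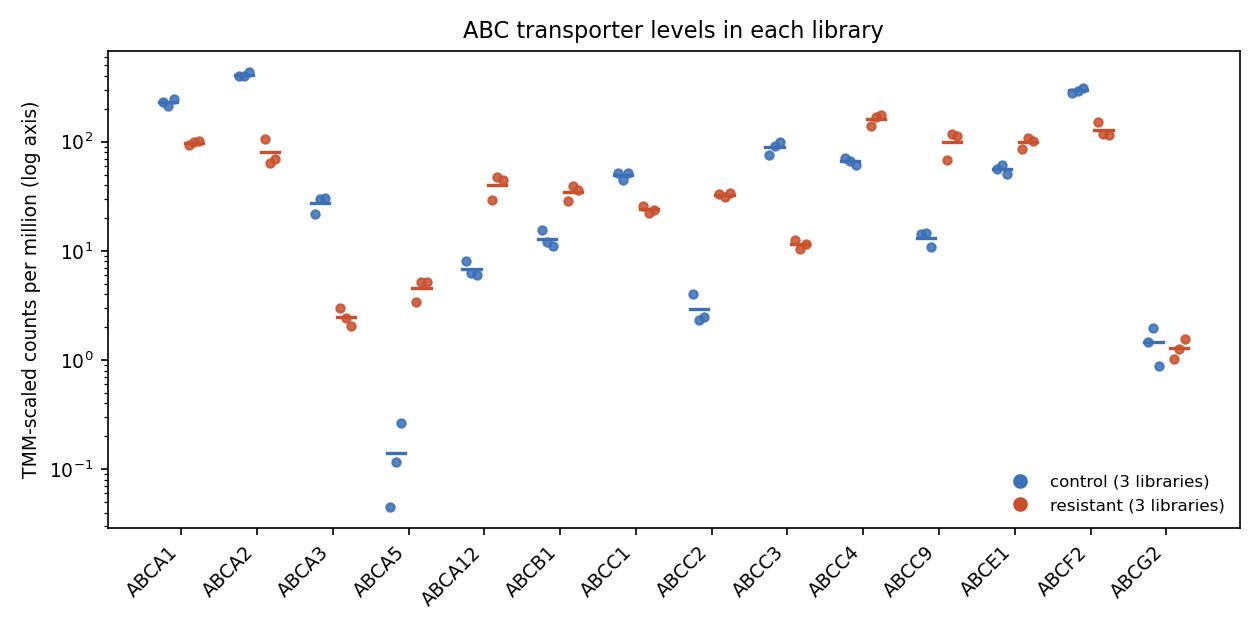
TMM-scaled CPM (y axis, log scale) of 14 ABC transporter genes in each of the 3 control and 3 resistant libraries, with points for libraries and short lines for group means. The resistant points lie above the control points for ABCA5, ABCA12, ABCB1, ABCC2, ABCC4, ABCC9 and ABCE1 (the last of these lower after GC adjustment), below them for ABCA1, ABCA2, ABCA3, ABCC1, ABCC3 and ABCF2, and among them for ABCG2.

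Subfamily A, the lipid transporters, held the largest changes in each direction, with 3 of 8 tested members higher, 4 lower and 1 not past the test. After GC adjustment 4 were higher and 4 lower. ABCA3, which loads surfactant lipids into lamellar bodies in the lung, measured 21.6, 29.8 and 30.7 CPM in control and 2.99, 2.43 and 2.05 CPM in resistant libraries. It fell 10.98-fold (log2 fold change -3.46 ± 0.19, adjusted p = 6.09e-08, GC-adjusted -2.36). ABCA2, a transporter of late endosomes and lysosomes tied to sterol and sphingolipid traffic, measured 396, 401 and 431 CPM in control libraries. In resistant libraries it measured 105.5, 64.5 and 69.7 CPM, a 5.12-fold decrease (log2 fold change -2.36 ± 0.17, adjusted p = 2.51e-07, GC-adjusted -1.18). ABCA1, which passes cholesterol and phospholipid to apolipoprotein A-I, fell from 230, 211 and 248 CPM to 93.2, 100.1 and 100.7 CPM. Its log2 fold change of -1.23 ± 0.10 (adjusted p = 6.61e-07) was -1.06 after GC adjustment, and -1.76 when GC content and length came from the longest transcript.

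The rises in subfamily A began from low levels. ABCA12, a transporter of glucosylceramides best known in the skin barrier, measured 8.04, 6.31 and 6.01 CPM in control and 29.2, 47.3 and 44.7 CPM in resistant libraries. It was 5.95-fold higher (log2 fold change 2.57 ± 0.19, adjusted p = 3.23e-07, GC-adjusted 1.61). ABCA5, a lysosomal member of uncertain substrate, had 2, 5 and 12 counts in control and 146, 222 and 220 counts in resistant libraries. Its fitted rise of 31.5-fold (log2 fold change 4.98 ± 0.43, adjusted p = 8.0e-07, GC-adjusted 3.52) rests on 19 control counts in all. ABCA4, a retinoid flippase of photoreceptors, had 5, 8 and 4 counts in control and 22, 18 and 21 in resistant libraries, a log2 fold change of 1.86 ± 0.52 (adjusted p = 0.00621, GC-adjusted 2.28). Both stayed under 6 CPM in every library. ABCA7, a phospholipid transporter, changed by -0.57 ± 0.18 on the log2 scale (adjusted p = 0.0115), did not pass with scaling by total counts (-0.22, adjusted p = 0.268) and was higher after GC adjustment (0.72). ABCA13 did not pass at -0.09 ± 0.22 (adjusted p = 0.713), and GC adjustment made it lower (-1.54).

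In subfamily B, 1 of 5 tested members rose, 3 fell and 1 did not pass, and after GC adjustment 3 were higher and 1 lower. ABCB8, a mitochondrial inner membrane member, fell from 58.7, 59.5 and 66.4 CPM to 29.4, 20.2 and 22.6 CPM (log2 fold change -1.35 ± 0.14, adjusted p = 3.57e-06). GC adjustment took that difference to -0.06 (adjusted p = 0.543). ABCB10, which supports heme synthesis in mitochondria, did not pass at -0.01 ± 0.13 (95% interval -0.28 to 0.25), with -0.47 after GC adjustment. ABCB6, linked to porphyrin transport, and ABCB9, a lysosomal peptide transporter, changed by -0.71 ± 0.15 and -0.78 ± 0.16 on the log2 scale, and were higher after GC adjustment (0.44 and 0.48). ABCB9 measured 11.4, 9.86 and 11.2 CPM in control and 7.25, 5.68 and 5.96 CPM in resistant libraries.

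Of the 2 tested members of subfamily D, 1 rose and 1 fell, against 1 higher and 0 lower after GC adjustment. ABCD3, which brings branched-chain acyl groups and bile acid precursors into peroxisomes, measured 33.8, 30.7 and 24.1 CPM in control and 67.3, 80.5 and 82.0 CPM in resistant libraries. It was 2.59-fold higher (log2 fold change 1.37 ± 0.14, adjusted p = 2.92e-06, GC-adjusted 0.43). ABCD4, which helps cobalamin leave the lysosome, fell from 21.4, 19.7 and 23.0 CPM to 11.7, 12.4 and 11.4 CPM (-0.85 ± 0.12, adjusted p = 4.43e-05), and did not pass after adjustment (-0.09, adjusted p = 0.440).

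Of the soluble members that act on ribosomes, ABCE1 rose and both tested members of subfamily F fell. ABCE1, which splits ribosomes into subunits after termination, measured 55.8, 61.7 and 50.2 CPM in control and 86.1, 107.9 and 101.6 CPM in resistant libraries. Its log2 fold change of 0.82 ± 0.12 (adjusted p = 6.34e-05) turned to -0.42 after GC adjustment (adjusted p = 0.00125). ABCF2 went from 281, 294 and 309 CPM to 151.8, 117.6 and 115.3 CPM (log2 fold change -1.20 ± 0.12, adjusted p = 2.47e-06, GC-adjusted -0.79). ABCF3 went from 64.3, 69.1 and 75.7 CPM to 42.1, 34.1 and 32.4 CPM (log2 fold change -0.95 ± 0.13, adjusted p = 2.50e-05), and did not pass after adjustment (0.10, adjusted p = 0.260).

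Of the 18 untested members, 12 had counts in at least 1 library and 6 had 0 counts in all. ABCC6, a liver and kidney transporter mutated in pseudoxanthoma elasticum, had 12, 2 and 7 counts in control and 0 in each resistant library. Its ratio of resistant over control counts had an exact 95% interval of 0 to 0.198 for counting error. Reads of ABCC6 may be split with its pseudogenes: ABCC6P1 had 38 counts over control and 233 over resistant libraries, a log2 fold change of 2.65 ± 0.49 (adjusted p = 3.63e-04). ABCA8 had 0 counts in control and 19, 2 and 2 in resistant libraries, with most counts in replicate 1. The exact 95% interval of its ratio began at 5.94. ABCB4, the phosphatidylcholine flippase of bile, had 0 in control and 0, 4 and 8 in resistant libraries. ABCB5 had 8 control and 17 resistant counts, a ratio of 2.20 with an exact 95% interval of 0.898 to 5.88 for counting error. ABCG1, which moves sterols to high-density lipoprotein, had 1, 2 and 1 counts in control and 0 in each resistant library. The exact 95% interval of its ratio, 0 to 1.56, leaves room for no change. ABCD2 had 0 and 7 counts over the lines and ABCG4 3 and 8, and ABCA6, ABCA10, ABCB11, ABCC11 and ABCC12 had at most 5 over a line. ABCA9, ABCC8, ABCC13, ABCG5 and ABCG8 had 0 counts in all 6 libraries.

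ABCF1, a translation factor that works with eIF2 and is used by most cells, was also listed at 0 in all 6 libraries. Of the 20 protein-coding genes nearest to it in RefSeq's order on GRCh38.p14, 10 on each side, 13 were listed at 0 in all libraries, among them TUBB, a beta-tubulin, and FLOT1. Over all protein-coding rows matched by symbol, 19.8% were at 0. TAP1, an ABC protein of antigen presentation whose symbol falls outside the rule, was at 0 as well, and so were 13 of its 20 nearest genes. Most of these were HLA-D genes, such as HLA-DRB1 and HLA-DQA1, and the others were PSMB8, PSMB9 and SLC39A7. Whether they were at 0 for the same reason as the genes near ABCF1 was not tested. Both lie in the major histocompatibility complex. How reads of this region were counted is unknown here, so no level is given for ABCF1 or TAP1. TAPBP, a partner of the peptide transporter from the same region, had 0, 940 and 3 counts in control and 2, 2 and 7 in resistant libraries, with nearly all of them in 1 library. TAP2 had 10 counts over control and 31 over resistant libraries, and CFTR, the chloride channel of the family, 0 and 1.

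Scaled for length, by the longest basic transcript of each gene, ABCF2 was the highest tested member in both lines, at 83.2 ± 3.96 CPM per kilobase in control and 36.2 ± 5.76 in resistant libraries (SD, n = 3). In control it was followed by ABCA2 (50.2 ± 2.34), ABCF3 (26.6 ± 2.17), ABCA1 (21.9 ± 1.73) and ABCC3 (15.6 ± 2.11). Below these, ABCE1 (14.3 ± 1.46) and ABCB8 (13.1 ± 0.901) did not differ beyond their spread from each other, nor ABCE1 from ABCC3. The order in resistant libraries was ABCF2, ABCC4 (27.5 ± 3.25), ABCE1 (25.1 ± 2.86), ABCD3 (21.7 ± 2.28), ABCF3 (13.8 ± 1.96) and ABCC9 (12.04 ± 3.37), in which ABCC4, ABCE1 and ABCD3 overlapped with their neighbours within the spread, as did ABCF3 and ABCC9. Among the 26 tested members ABCC3 moved from rank 5 to rank 19, ABCC9 from rank 20 to rank 6 and ABCC2 from rank 22 to rank 11. These ranks come from levels without GC adjustment, and the transcripts that these cells use are not known from gene counts.

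**Figure D3:**
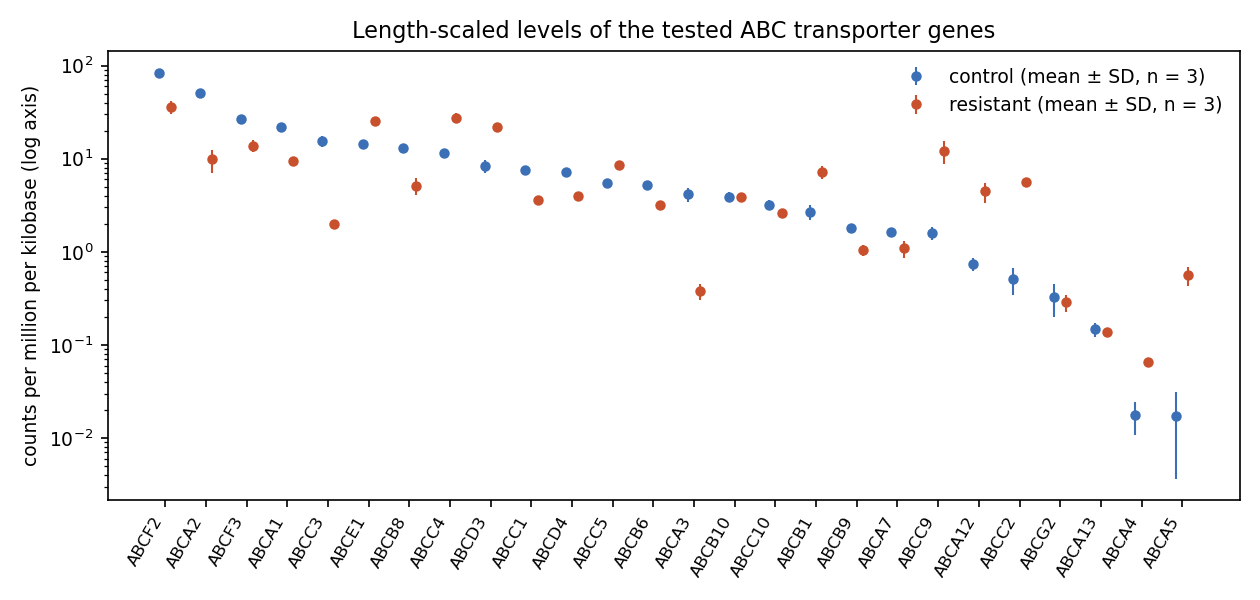
Length-scaled level (y axis, CPM per kilobase of the longest transcript, log scale) of the 26 tested ABC transporter genes, ordered from left to right by their control mean, as mean ± SD of 3 libraries per line. ABCF2 is highest in both lines. At the low end of control, ABCC9, ABCC2 and ABCA5 lie above their neighbours in the resistant line, and ABCA12 lies below ABCC9 and ABCC2 beside it.

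The direction of change followed base composition within the family. Of 13 tested members with a GC content under 50%, 9 were higher, ABCA1 was lower and 3 did not pass. Of the 13 with 50% or more, 11 were lower, ABCA4 was higher and ABCC10 did not pass. Over all tested genes with a GC value, 61.7% of those under 50% were higher and 71.4% of the others were lower. Spearman's rho between GC content and log2 fold change was -0.73 over the 26 members and -0.69 over 14218 genes, which share the same 6 libraries and are no independent replicates. Over the members it was -0.20 after the adjustment, which takes out a trend on GC content by design, so that this drop is no separate result. GC content at the third codon position gave a rho of -0.77 over the members. What lies behind this relation was not tested. The members with at least 2-fold GC-adjusted changes were ABCA5, ABCC2, ABCA4, ABCC9 and ABCA12 on the higher side and ABCA3, ABCC3, ABCA13, ABCG2, ABCA2 and ABCA1 on the lower side.

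**Figure D4:**
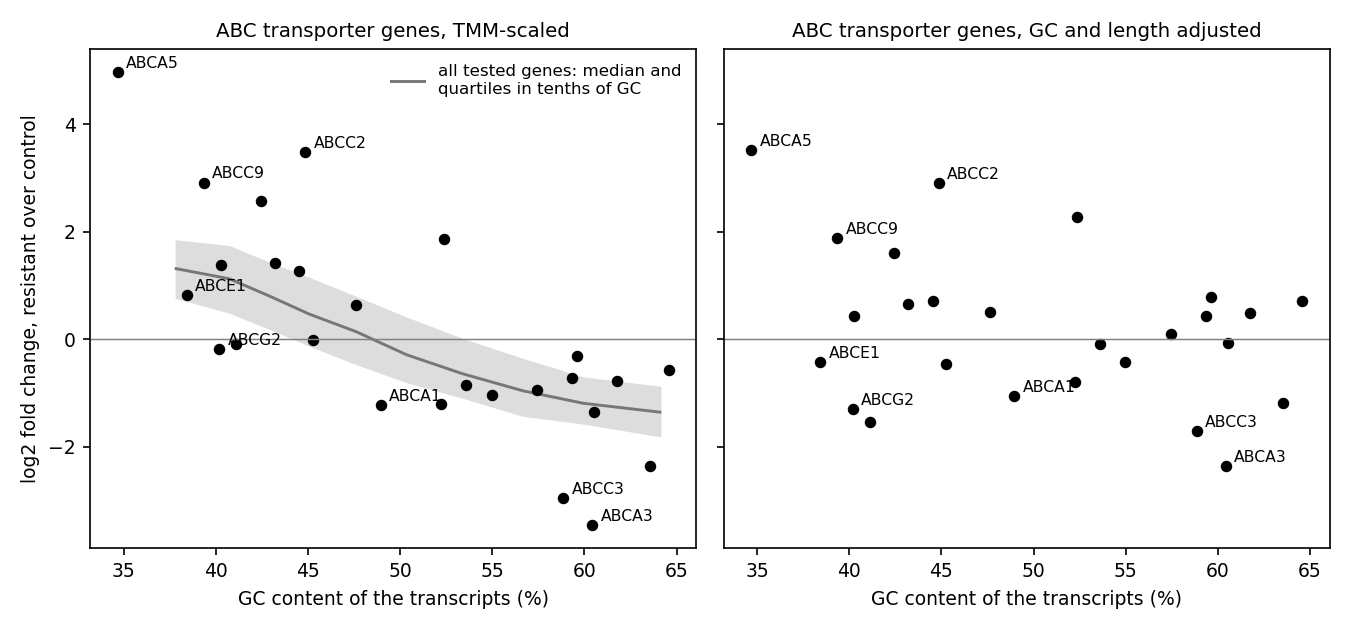
Log2 fold change (y axis, resistant over control) against GC content of the transcripts (x axis, percent) for the 26 tested ABC transporter genes, TMM-scaled on the left and GC-adjusted on the right, and on the left the median and quartiles of all tested genes, binned by GC content, as line and band. Points on the left fall from low to high GC content (rho -0.73), and the slope is mostly gone on the right (rho -0.20), where the adjustment removes it by design.

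Promoter sequences are shown for 4 members because GC boxes were found upstream of every searchable member that was called lower before GC adjustment. RefSeq promoters on GRCh38.p14 were matched for 35 members, 23 of them tested, and the 250 bases before each start were searched on both strands. The GC box GGGCGG, a site type read by SP1-like factors, was found for 10 of 10 lower and 4 of 9 higher members in at least 1 promoter, and for 46.2% of all genes in the table counted the same way. That share was not matched for GC content, which was high in most lower members. Higher and lower are calls before GC adjustment. After it, ABCA7, ABCB6 and ABCB9 of the lower members turned higher, ABCB8, ABCD4 and ABCF3 did not pass, and ABCE1 of the higher ones turned lower. CCAAT was found for 5 lower and 2 higher members (37.0% of all genes), TATAAA for 1 lower and 2 higher (13.0%), and TGACNNNGC, the core of the antioxidant response element, for 5 lower and 1 higher (13.2%). The perfect liver X receptor element, a direct repeat with 4 bases between, was found for 0 members and for 5 of 27305 genes. Only these exact letters were searched, and so few genes hold them that the 0 cannot show whether ABCA1 or another member has such a site. Sites with other letters in either repeat were not searched and are not in capitals below. A match describes the letters and no more. The sequences are the 150 bases before the start, with these motifs in capitals. ABCA1 (chr9:104928156-104928305, minus strand) and ABCA2 (chr9:137028238-137028387, minus) fell, and ABCB1 (chr7:87600885-87601034, minus) and ABCC2 (chr10:99782490-99782639, plus) rose.
ABCA1: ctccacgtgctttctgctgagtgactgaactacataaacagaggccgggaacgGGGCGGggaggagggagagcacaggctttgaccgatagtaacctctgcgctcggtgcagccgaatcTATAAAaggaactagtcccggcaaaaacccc
ABCA2: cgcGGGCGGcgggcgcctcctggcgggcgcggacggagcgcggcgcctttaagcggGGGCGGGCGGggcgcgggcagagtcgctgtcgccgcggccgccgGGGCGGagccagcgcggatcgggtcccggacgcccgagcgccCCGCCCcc
ABCB1: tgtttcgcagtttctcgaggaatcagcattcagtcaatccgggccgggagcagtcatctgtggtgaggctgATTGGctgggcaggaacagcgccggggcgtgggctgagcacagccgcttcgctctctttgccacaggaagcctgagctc
ABCC2: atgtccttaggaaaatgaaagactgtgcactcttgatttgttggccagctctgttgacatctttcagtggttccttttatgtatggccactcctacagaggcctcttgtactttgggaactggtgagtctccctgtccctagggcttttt
Of the exact motifs searched, ABCA2 held several GC boxes in this window and ABCA1 a GC box and a TATAAA. ABCB1 held a CCAAT on the reverse strand and ABCC2 none of these motifs, with a TATAAA farther upstream.

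Other genes of the routes that ABC proteins serve were counted from lists. Beside these counts stand 39.3% higher and 36.9% lower over all tested genes, and 34.3% and 32.6% after GC adjustment. No list was tested against these shares. Of 8 tested sterol sensors and liver X receptor targets outside the family, 1 rose and 6 fell, and 2 were higher and 1 lower after GC adjustment. RXRA, a partner of nuclear receptors, fell from 219 to 77.7 CPM, and NR1H2, which encodes liver X receptor beta, from 70.2 to 26.9 CPM, and neither passed after GC adjustment (0.02 and 0.14). MYLIP, a degrader of the LDL receptor, rose from 4.95 to 13.7 CPM (log2 fold change 1.46, GC-adjusted 1.68). Of 11 tested xenobiotic receptors and targets, 2 rose and 5 fell (2 and 6 after adjustment). CYP1B1, a target of the aryl hydrocarbon receptor, fell from 39.3 to 1.99 CPM (log2 fold change -4.30, GC-adjusted -4.77). NQO1, a target of NRF2, changed by -1.49 on the log2 scale (-1.56), and KEAP1, which holds NRF2 back, by -1.47 (-0.22), while NFE2L2, which encodes NRF2, rose by 1.67 (0.68). The pregnane receptor gene NR1I2 had 1 count in each line. Of 12 tested solute carriers of drugs, 3 rose and 4 fell (4 and 4 after adjustment). SLCO4A1 fell from 129.8 to 20.7 CPM (GC-adjusted -1.36), the nucleoside carrier SLC29A1 from 105.9 to 35.7 CPM (-0.58) and SLCO3A1 from 34.6 to 18.8 CPM (-0.23). The organic cation transporter SLC22A2 rose from 0.157 to 1.74 CPM (GC-adjusted 3.37).

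Partners inside the cell were measured the same way, beside the same shares of all tested genes (39.3% higher and 36.9% lower, 34.3% and 32.6% after adjustment). Of 21 tested iron-sulfur and heme genes, 1 rose and 15 fell (2 and 10 after adjustment), with GFER changing by -1.93 on the log2 scale (GC-adjusted -0.78), SLC25A39, a mitochondrial glutathione carrier, by -1.76 (-0.33) and UROD of heme synthesis by -1.43 (-0.62). Of 13 tested genes of ribosome recycling and GCN1 function, 8 rose and 3 fell (4 and 5 after adjustment). HBS1L, which rescues stalled ribosomes, rose by 1.501 (GC-adjusted 0.52), EIF2S2, a subunit of eIF2, by 1.48 (1.08) and the release factor ETF1 by 1.14 (0.33). The 22 tested peroxisome genes gave 7 higher and 9 lower (7 and 6 after adjustment), the 11 cobalamin genes 6 higher and 2 lower (4 and 3), and the 16 glutathione genes 6 higher and 7 lower (5 and 5 of 15 with a GC value). The peroxisome genes PXMP2, PEX10 and PEX14 changed by -1.74, -1.41 and -1.16 on the log2 scale, and after GC adjustment PXMP2 was lower (-0.87), PEX10 did not pass (0.046) and PEX14 was higher (0.28). Of the cobalamin genes MMAA rose by 2.31 (1.28), MTRR by 1.04 (0.17, not past) and MMACHC changed by -1.38 (-1.29). LMBRD1, the lysosomal partner of ABCD4, rose by 0.85 on the log2 scale and was lower after adjustment (-0.25). GSTK1 and GSTP1, glutathione transferases, changed by -1.33 (GC-adjusted -0.53) and -1.06 (0.15, not past), and GCLM, a subunit of the enzyme that starts glutathione synthesis, rose by 1.29 (0.16, not past). Of TAPBP, TAPBPL, KCNJ8, KCNJ11 and KCNE1, listed as partners of ABC channels and peptide transporters, 1 was tested, and TAPBPL changed by -1.12 (GC-adjusted 0.05, not past).

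Labels name kidney cancer cells, but the extraction text names a brain region, so markers were checked. PAX8, a renal lineage factor, stood at 545 CPM in control and 407 CPM in resistant libraries, and PAX2 at 51.0 and 23.8 CPM, differences that turned higher after GC adjustment (log2 fold change 0.50 and 0.23). The 8 renal carcinoma markers summed to 12612 to 13768 CPM in control and 3647 to 4540 CPM in resistant libraries, most of it VIM, with 5 of 7 tested lower. After GC adjustment 2 of the 7 were higher and 3 lower, namely VIM (-1.27), KRT8 (-0.65) and CDH2 (-0.59). Of all tested genes 39.3% were higher and 36.9% lower, and 34.3% and 32.6% after adjustment. CA9 was at 0 counts, as were PTPRC and CD3E of blood cells and NEFM of neurons, and GFAP had 8 counts in control and 2 in resistant libraries. AQP4 of astrocytes had 0 counts in control and 12, 17 and 17 in resistant libraries. The 11 neuron and brain markers summed to between 128.6 and 145.5 CPM in control and 112.2 to 135.8 CPM in resistant libraries, most of it NEFL, with 4 of 7 tested higher and 2 lower (5 and 2 after GC adjustment). Beside AQP4, SNAP25 rose from 3.32 to 12.9 CPM (GC-adjusted 1.33), SYT1 from 0.405 to 2.29 CPM (1.47) and MBP from 25.1 to 39.4 CPM (1.63). The 2 lower ones were NEFL, from 103.4 to 69.9 CPM (-0.63), and GAD1, from 4.27 to 1.86 CPM (-0.78). The sum thus mainly follows NEFL and does not show the rises. Endothelial markers summed to at most 0.818 CPM in a library. The 5 blood markers summed to between 40.0 and 47.3 CPM in control and 8.74 to 10.9 CPM in resistant libraries, nearly all of it CD68. Of the liver markers, SERPINA1 rose from 35.0 to 125.0 CPM, and ALB, APOA1 and TTR had at most 7 counts over the libraries of a line. The part of these differences in the values of the ABC transporter genes was not tested.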

How the data were processed

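The authors deposited raw read counts per gene symbol for 3 control and 3 resistant libraries, 1 column each, and 0 columns were left unused. HISAT2 2.0.4 was used per the submitters' processing notes. Which program counted the reads, whether it used strand, and against which build and annotation is not given in the sources used here. Reads of antisense or overlapping genes and of near-identical copies may thus be mixed. Groups came from the titles and phenotype labels. Genes were kept by filterByExpr (16642 of 54261), scaled by TMM (factors 0.867 to 1.14) and compared by the quasi-likelihood test of edgeR 4.0.16 in R 4.3.3, Benjamini-Hochberg adjusted over all tested genes, with a threshold of 0.05. DESeq2 1.42.0 was an alternative. For GC adjustment, a spline trend on GC content (df 6) and log2 length (df 5), from GENCODE 29 basic transcripts, was fitted to each library's deviation in log2 CPM (prior count 1) and used as an offset. Of the gene rows 34718 matched by name, 11 as mitochondrial and 692 by another symbol. The GC annotation may differ from the authors'. Standard errors were approximated by dividing the size of the log2 fold change by the root of the F statistic, and 95% intervals use the normal quantile. Both tests were tried on simulated counts in which a small set of genes was changed by known folds and any GC trend was linear. Calls were far more common in the real libraries, so these runs do not show how either test performs on them.

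The members, lists and alternatives were chosen with earlier results of these data known. Of the 46 rows that match the rule 2, and 1 gene of a list, are not reported here and are left out of all counts over members and lists. All other tested members were named. Values in every library were set for ABCB1, ABCG2, ABCC1 to ABCC4, ABCA1, ABCG1 and ABCE1 and for up to 3 members a subfamily with the smallest p. ABCA5, ABCA4 and the neighbours of ABCF1 and TAP1 were added after their values were seen, as were the genes named from the lists beyond the up to 3 with the smallest p (NFE2L2, NR1I2, SLC22A2, LMBRD1, TAPBP and the members of the short lists). Intervals and floors on counts describe counting error alone, because PCR copies of a molecule are not independent.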

Additional observations from a re-analysis of the deposited data

How the results depend on the processing

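Relative log expression factors, no low-count filter, DESeq2 and leaving out control replicate 3 or resistant replicate 2 changed no direction or call among the 26 tested members, and 21 members kept both under every alternative without GC adjustment. Without a low-count filter ABCA8 and ABCB4 were also called higher and ABCC6 lower, giving 12 higher and 13 lower. A filter of 1 CPM in 3 libraries left out ABCA4. Calls over all genes moved by less than 1.5 times under every alternative run, and calls of members ranged from 9 to 14 higher and 10 to 13 lower. Leaving out 1 library gave 10 higher members each time and 12 to 13 lower.

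ABCB10, near 0, changed sign with upper-quartile factors (0.050), library size alone (0.33), 1 CPM in 3 libraries (0.032), the genes with a GC value only (0.069), without control replicate 1 (0.026) and without resistant replicate 3 (0.024), and its lowest value with 1 library left out was -0.14. ABCG2 did so without control replicate 2 (0.070; lowest with 1 library left out -0.47) and with library size alone (0.16), as did ABCA13 (0.25) and ABCC10 (0.044) with library size alone. With GC content and length adjusted, GC content alone, the adjustment with the replicate block, the adjustment without resistant replicate 1, and the longest transcript (chosen after seeing the data), in that order, the reversed values were 0.72, 0.89, 0.71, 0.70 and 0.73 for ABCA7, 0.44, 0.46, 0.44, 0.46 and 0.54 for ABCB6, 0.48, 0.54, 0.49, 0.46 and 0.49 for ABCB9, 0.79, 0.89, 0.79, 0.78 and 0.75 for ABCC10, -0.42, -0.40, -0.41, -0.43 and -0.31 for ABCE1, and 0.10, 0.061, 0.10, 0.040 and 0.24 for ABCF3. The cause was not tested.

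With the replicate number as a block, 6246 genes were higher and 5851 lower, and the 10 higher and 12 lower calls of members did not change. Same-numbered libraries did not deviate together (Pearson's r of -0.13, -0.01 and -0.06 over genes), so the numbers were not taken to pair the libraries.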
